A study of Mus musculus with 14 samples.

Results

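Chemokines are small secreted proteins that guide leukocytes along a concentration gradient by binding G protein-coupled receptors on the responding cell. *Ccl2*, *Ccl7* and *Ccl12* encode ligands of CCR2 and recruit monocytes. *Ccl3*, *Ccl4* and *Ccl5* encode attractants of monocytes, T cells and NK cells, *Ccl6* and *Ccl9* encode mouse ligands of CCR1, *Cxcl2* encodes a ligand of CXCR2 that attracts neutrophils, and *Cxcl16* encodes a membrane-anchored ligand of CXCR6. Microglia, the resident macrophages of the brain, and macrophages that enter after injury both make several of them. These 10 genes, taken by symbol, were all found among the 33939 genes in the table of CD11b+ microglia/macrophages after traumatic brain injury (TBI).

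At 3 days after controlled cortical impact, CD11b+ cells were isolated with magnetic beads from the contralateral (CL) and the ipsilateral, injured (IL) hemisphere of C57BL/6 mice aged 8 to 12 weeks. Control (Ctrl) mice were tamoxifen-treated Cx3cr1-CreER+/- animals, and conditional knockout (cKO) mice were tamoxifen-treated Cx3cr1-CreER+/- animals that also carried the floxed target gene on both alleles, so that every group carried the Cre allele and had received both tamoxifen and the impact. There were 4 libraries each of Ctrl CL and Ctrl IL and 3 each of cKO CL and cKO IL, from 8 mice by the numbers in the labels, of which 6 gave both hemispheres, while cKO mouse 784 gave IL and cKO mouse 788 gave CL. That these are 2 animals rests on their numbers alone. The *Cx3cr1* promoter that drives Cre is active in microglia and in other CX3CR1+ myeloid cells, the bead selection keeps every CD11b+ cell, and no uninjured brain was analysed here, so that the CL hemisphere is the reference. Values are assigned reads scaled to 1000000 per library (CPM), and differences are log2 fold changes of log2(CPM + 1) from limma with a standard error (SE) and a Benjamini-Hochberg adjusted p over all genes tested. A gene was called at an adjusted p of at most 0.05 and a fold change of at least 1.2.

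Reads assigned to genes ranged from 12.2 to 41.6 M per library. The Ctrl IL library of mouse 3546, which had the fewest, stood apart: genes with transcripts of up to 750 nt lay at a median of -2.29 on the log2 scale against the other Ctrl IL libraries, and those over 4000 nt at 0.28. In the Ctrl CL library of the same mouse these medians were -0.62 and 0.27, and in the 6 cKO libraries they stayed between -0.04 and 0.04. Because most chemokine transcripts are short (*Ccl5*, 532 nt, to *Ccl9*, 3006 nt), results that rest on this library are given with and without it. Fewer cells of a type and less RNA per cell cannot be told apart in such bulk samples.

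**Figure D1:**
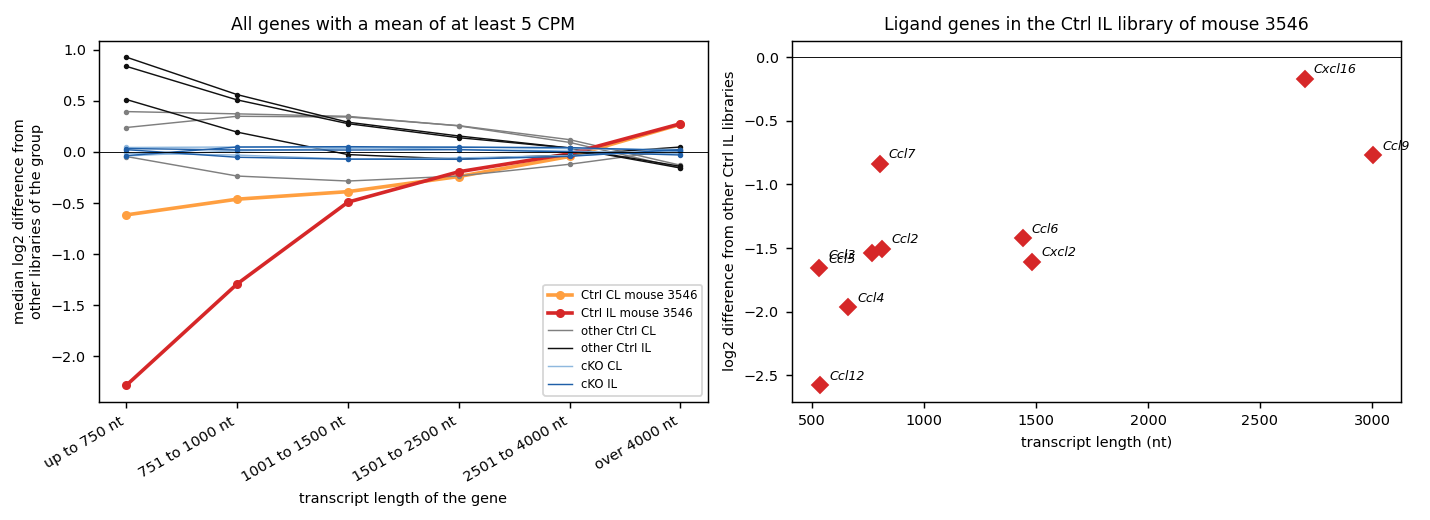
Left, median log2 difference of each library from the other libraries of its group (y axis) for all genes with a mean of at least 5 CPM, by transcript length in nt (x axis), with the libraries of mouse 3546 in red (IL) and orange (CL). Right, the same difference for each of the 10 ligand genes in the Ctrl IL library of mouse 3546 against its transcript length, where, after scaling of the libraries, all 10 lie below 0 and *Ccl12* is lowest at -2.58.

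In that Ctrl IL library, *Ccl12* lay at -2.58, *Ccl4* at -1.97, *Ccl5* at -1.66 and *Cxcl2* at -1.61 on the log2 scale, after scaling of the libraries, against the other Ctrl IL libraries. The longer *Ccl9* and *Cxcl16* transcripts lay at -0.77 and -0.17. The 10 ligands together took 1664 CPM in it and 3233, 4158 and 4220 CPM in the Ctrl IL libraries of mice 3541, 3545 and 3551.

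The ligands differed widely in level. Summed, the 10 genes took 0.166% to 0.635% of the assigned reads of a library, and *Ccl3* and *Ccl4* together made up 47.7% to 74.3% of that sum. Per kb of transcript, *Ccl4* was highest in each of the 4 groups and *Ccl3* next, at 2146 ± 567 and 1243 ± 510 CPM per kb in Ctrl CL (SD, n = 4) and at 3325 ± 958 and 1560 ± 435 CPM per kb in cKO IL (SD, n = 3). *Ccl5* was lowest in each group, at 5.91 ± 2.95 CPM per kb in Ctrl CL (SD, n = 4) and 24.1 ± 13.6 CPM per kb in cKO IL (SD, n = 3). *Ccl12* followed *Ccl3* in Ctrl CL (333 ± 138 CPM per kb), Ctrl IL (362 ± 184) and cKO IL (673 ± 163), and *Ccl6* did so in cKO CL (345 ± 130). The libraries of *Ccl4* and *Ccl3* overlapped on this scale in Ctrl CL, Ctrl IL and cKO CL but not in cKO IL, and in each of the 4 groups the libraries of *Ccl12* and *Ccl2* overlapped. In Ctrl CL, *Ccl7*, *Cxcl16*, *Cxcl2* and *Ccl9*, at 75.1, 70.1, 52.6 and 46.2 CPM per kb, each overlapped the next in order.

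**Figure D2:**
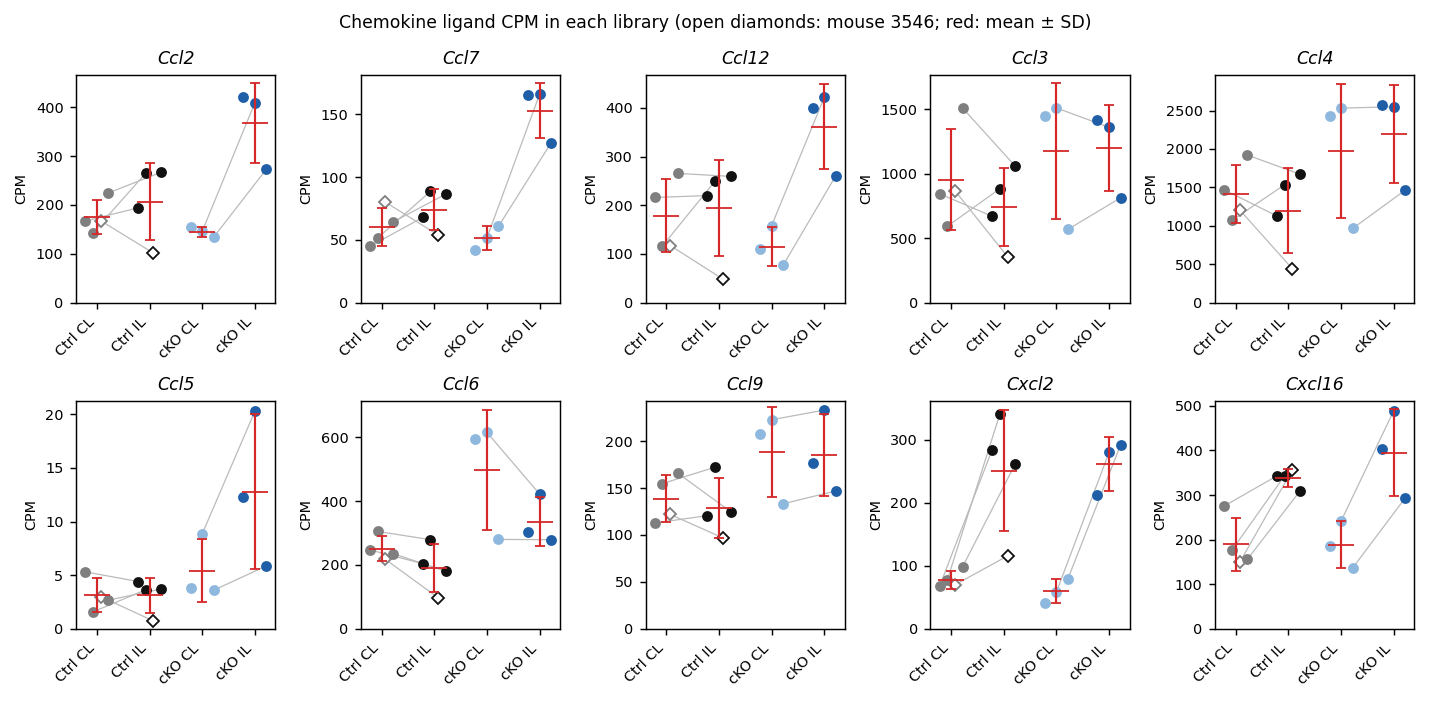
CPM (y axis) of each ligand gene in each of the 14 libraries by group (x axis), with the mean ± SD in red and grey lines joining the hemispheres of a mouse. The *Cxcl2* libraries of IL lie above those of CL in both genotypes, the 3 cKO IL libraries of *Ccl2* and *Ccl7* lie above all others, and the Ctrl IL library of mouse 3546 (open diamond) is the lowest of its group for each gene but *Cxcl16*.

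On chromosome 11 (GRCm38, the build named in the submitters' notes as mm10), *Ccl2* (82035571-82037453), *Ccl7* (82045712-82047525) and *Ccl12* (82101845-82103400) lie within 67.8 kb on the plus strand. *Ccl5* (83525778-83530518), *Ccl9* (83572919-83578636), *Ccl6* (83587882-83593087) and *Ccl3* (83647844-83649355) on the minus strand and *Ccl4* (83662584-83664683) on the plus strand lie within 138.9 kb. The groups are 1422 kb apart. *Cxcl16* lies apart on the same chromosome (70453983-70459984, minus strand) and *Cxcl2* on chromosome 5 (90903871-90905938, plus strand). Values are summed over all exons of a gene. The exons of *Cxcl16* share 552 bases with *Zmynd15* on the opposite strand, and the *Cxcl2* transcript matches that of *Cxcl3* over 358 bases at 89.9% identity and that of *Cxcl1* over 341 bases at 78.9%, so that reads in these stretches may be split between the genes.

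RefSeq promoter windows (GRCm38.p6, 250 bases before to 50 after the start) were at hand for 5 of the 10 genes. They were searched on both strands for a kappaB-like motif (GGGNNTTTCC or GGGNNNTTCC), which 5.56% of all 32851 windows hold, and for an AP-1-like (TGANTCA, 7.81%), a CRE-like (TGACGTCA, 1.79%) and an ISRE-like motif (GAAANNGAAA, 3.44%). *Cxcl2* held kappaB-like matches at -97 to -88 and, on the other strand, at -96 to -87, which overlap, and at -78 to -69. *Ccl9* held a kappaB-like match at -35 to -26 and an AP-1-like match at -53 to -47. *Ccl3*, *Ccl6* and *Ccl12* held no match to any of the 4 motifs in these windows. The bases before both the RefSeq and the GENCODE start are shown for *Cxcl2* and *Ccl12*, which were called between hemispheres, and for *Ccl9*, which was not, with kappaB-like matches in capitals. The regions are chr5:90903649-90903870 (plus strand), chr11:82101595-82101844 (plus strand) and chr11:83578637-83578886 (minus strand).
*Cxcl2*: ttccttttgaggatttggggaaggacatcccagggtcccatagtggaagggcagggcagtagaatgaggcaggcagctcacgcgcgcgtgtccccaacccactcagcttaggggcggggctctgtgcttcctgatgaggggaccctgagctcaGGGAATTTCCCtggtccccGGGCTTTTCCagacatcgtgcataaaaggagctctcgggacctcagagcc
*Ccl12*: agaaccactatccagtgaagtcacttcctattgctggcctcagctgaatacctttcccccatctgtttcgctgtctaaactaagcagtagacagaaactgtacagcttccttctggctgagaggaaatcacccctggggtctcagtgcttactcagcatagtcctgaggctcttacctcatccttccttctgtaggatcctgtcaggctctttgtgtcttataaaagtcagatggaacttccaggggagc
*Ccl9*: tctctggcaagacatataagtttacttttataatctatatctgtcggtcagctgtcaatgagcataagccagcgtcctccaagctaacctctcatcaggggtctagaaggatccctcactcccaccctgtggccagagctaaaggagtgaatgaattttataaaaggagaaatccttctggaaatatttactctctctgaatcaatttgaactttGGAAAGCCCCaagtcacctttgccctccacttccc

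To ask how the injured hemisphere differed from the other one in Ctrl mice, IL was compared with CL. Of the 10 ligands, only *Cxcl2* was called, and it was higher in IL. Over all genes tested, 6.56% were called in either direction and 3.6% higher. The median log2 fold change of the 10 was 0.02 with 6 above 0, against -0.04 over all genes. Without the IL library of mouse 3546 it was 0.50 with 9 above 0, against -0.03 over all genes. In both *Cxcl2* and *Cxcl16* the IL libraries lay above all CL libraries, which held in this direction for 6.26% of all genes.

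*Cxcl2*, the neutrophil attractant, was at 67.1, 77.0, 69.8 and 98.6 CPM in the CL libraries of Ctrl mice 3541, 3545, 3546 and 3551 and at 284, 340, 116 and 262 CPM in their IL libraries. Each mouse was higher in IL, and the smallest rise was in mouse 3546. The means were 78.1 ± 14.3 and 250.4 ± 95.8 CPM (SD, n = 4 each), and the log2 fold change was 1.65 (limma, SE 0.35, adjusted p = 0.0227). It was 2.05 (adjusted p = 2.75e-04) without the IL library of mouse 3546. The call was lost without the CL library of mouse 3545 (1.72, adjusted p = 0.0623) or 3546 (1.57, adjusted p = 0.0655), and without the IL library of mouse 3541 (1.47, adjusted p = 0.0763), 3545 (1.40, adjusted p = 0.0704) or 3551 (1.64, adjusted p = 0.0679).

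*Cxcl16*, the membrane-anchored ligand, was at 275, 176, 149 and 156 CPM in the CL libraries of the same mice and at 343, 343, 356 and 309 CPM in their IL libraries. Again each mouse was higher in IL, and in CPM before scaling the IL library of mouse 3546 was the highest of its group. The log2 fold change was 0.95 (limma, SE 0.25, adjusted p = 0.0524), which missed the threshold. With the mouse as a block, which compares the hemispheres within each animal, the adjusted p was 0.00356 and the gene was called. In that fit 20.5% of all genes were called in Ctrl, against 6.56% without the block. The call also appeared when the CL library of mouse 3541 (1.19, adjusted p = 0.00901) or the IL library of mouse 3546 (0.99, adjusted p = 0.047) was left out.

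The other 8 ligands were not called between the hemispheres of Ctrl mice, with log2 fold changes from -0.41 (*Ccl6*) to 0.38 (*Ccl7*). For the CCR2 ligands these were 0.23 (limma, SE 0.32, adjusted p = 0.771) for *Ccl2*, 0.38 (SE 0.22, adjusted p = 0.388) for *Ccl7* and 0.03 (SE 0.56, adjusted p = 0.989) for *Ccl12*. *Ccl2* was at 167, 143, 167 and 225 CPM in CL and at 194, 265, 101 and 267 CPM in IL of mice 3541, 3545, 3546 and 3551, so that 3 mice were higher and mouse 3546 was lower in IL. Without both libraries of mouse 3546, *Ccl7* was called (0.69, adjusted p = 0.0337), *Ccl2* was at 0.54 (adjusted p = 0.0922) and *Ccl12* at 0.46 (adjusted p = 0.295). *Ccl3* and *Ccl4*, at -0.32 (SE 0.37) and -0.31 (SE 0.42), changed sign when the IL library of mouse 3546 was left out (0.06 and 0.18). The 95% intervals of the log2 fold change, such as -1.21 to 1.27 for *Ccl12* and -0.58 to 0.48 for *Ccl9*, still allow sizeable differences.

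The same comparison in cKO mice gave 5 called ligands, all higher in IL: *Cxcl2*, *Ccl12*, *Ccl7*, *Ccl2* and *Cxcl16*. Over all genes tested 22.4% were called in either direction and 12.8% higher. For these 5 genes the IL libraries lay above all CL libraries, as did 18.1% of all genes. The median log2 fold change of the 10 was 1.14, against 0.02 over all genes. All genes with transcripts of up to 750 nt had a median of 0.45 and those over 4000 nt of -0.08 in this comparison. With the values adjusted for transcript length, a setting added after the data were seen, the 5 genes were all still called.

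*Ccl2* was at 155, 146 and 134 CPM in the CL libraries of cKO mice 788, 791 and 3592 and at 421, 409 and 273 CPM in the IL libraries of cKO mice 784, 791 and 3592. The CL libraries lay close together and every IL library was far above them. The means were 144.8 ± 10.2 and 367.8 ± 82.0 CPM (SD, n = 3 each), and the log2 fold change was 1.40 (limma, SE 0.20, adjusted p = 0.00379). It was 1.09 (adjusted p = 0.00965) after adjustment for transcript length.

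*Ccl7*, at a lower level, was at 42.2, 51.5 and 60.7 CPM in the CL libraries and at 165.5, 165.9 and 127.4 CPM in the IL libraries of these mice. Its IL values were at least as high as 127 CPM where no CL value passed 60.7 CPM, with a log2 fold change of 1.64 (limma, SE 0.17, adjusted p = 0.00183). *Ccl12* was at 110, 158 and 77.0 CPM in CL and at 401, 422 and 261 CPM in IL, with a log2 fold change of 1.76 (SE 0.29, adjusted p = 0.00596). In both hemispheres, mouse 3592 was the lowest for *Ccl2* and *Ccl12*. The call for *Ccl12* was lost when all 14 libraries were fitted together (1.78, adjusted p = 0.0771), but not when the mouse entered that fit as a random block (1.75, adjusted p = 0.0149).

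*Cxcl2* had the largest log2 fold change of the 10, 2.23 (limma, SE 0.21, adjusted p = 0.00183). It was at 41.6, 58.2 and 79.6 CPM in the CL libraries of cKO mice 788, 791 and 3592 and at 213, 280 and 292 CPM in the IL libraries of cKO mice 784, 791 and 3592. Here mouse 3592 was the highest in both hemispheres, unlike for *Ccl2* and *Ccl12*. *Cxcl16* was at 186, 242 and 137 CPM in CL and at 403, 489 and 294 CPM in IL, with a log2 fold change of 1.16 (SE 0.26, adjusted p = 0.0176). Without the IL library of mouse 784 (1.12, adjusted p = 0.0625) or of mouse 791 (0.95, adjusted p = 0.0642) its call was lost.

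*Ccl5*, the ligand at the lowest level, was at 3.82, 8.84 and 3.60 CPM in the CL libraries of cKO mice 788, 791 and 3592 and at 12.3, 20.3 and 5.87 CPM in the IL libraries of cKO mice 784, 791 and 3592. The groups overlapped, and the log2 fold change was 1.13 (limma, SE 0.46, adjusted p = 0.113). With the mouse as a block in the 2 cKO mice that gave both hemispheres, 13.5% of all genes were called. *Ccl5* was then at 0.94 (adjusted p = 0.0475) and was called. It was also called without the IL library of mouse 3592 (1.61, adjusted p = 0.0336), but not when the mouse entered as a random block (1.08, adjusted p = 0.0912). T and NK cells are known to make *Ccl5*, and the 12 genes of their list summed to 9.51 to 14.99 CPM in cKO CL and 6.85 to 18.9 CPM in cKO IL. In CL these sums lay above every *Ccl5* value, and in IL the ranges overlapped. Their part in this result was not tested.

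*Ccl3*, *Ccl4*, *Ccl6* and *Ccl9* were not called in cKO mice, with log2 fold changes of 0.20 (SE 0.41), 0.32 (SE 0.42), -0.42 (SE 0.32) and 0.07 (SE 0.25). Their CL libraries were uneven. *Ccl4* was at 2424 and 2532 CPM in the CL libraries of mice 788 and 791 but at 965 CPM in that of mouse 3592, and at 2571, 2549 and 1464 CPM in the IL libraries of mice 784, 791 and 3592. *Ccl3* was at 1446, 1508 and 567.5 CPM in CL and at 1416, 1358 and 812 CPM in IL. *Ccl6* was at 595, 615 and 280 CPM in CL and at 302, 422 and 279 CPM in IL, so that mouse 3592 hardly differed between its hemispheres. *Ccl9* showed the same order in CL, at 208, 223 and 133 CPM, and was at 177, 233 and 147 CPM in IL. Without the CL library of mouse 3592, *Ccl6* was called lower in IL (-0.80, adjusted p = 0.0258), and the log2 fold changes of *Ccl3*, *Ccl4* and *Ccl9* became -0.27, -0.15 and -0.16.

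**Figure D3:**
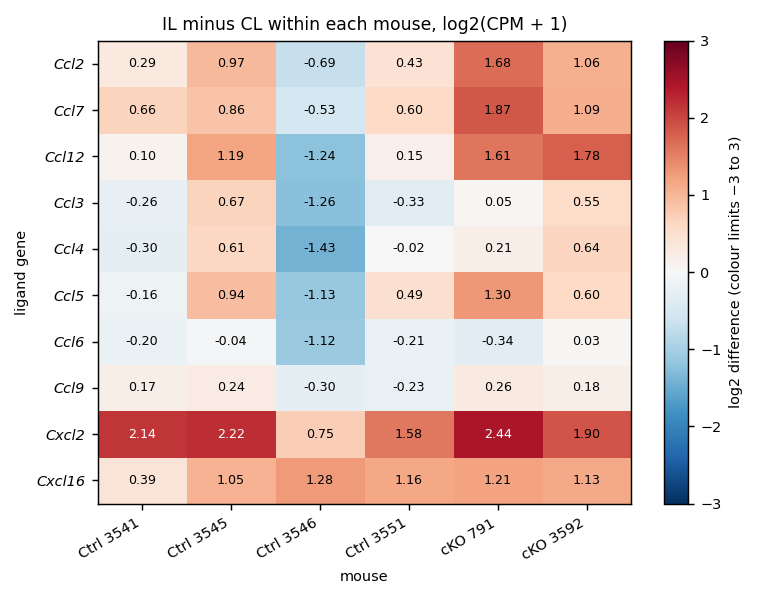
Difference of IL and CL within each of the 6 mice with both hemispheres (x axis), in log2(CPM + 1) after scaling, for the 10 ligand genes (y axis), with the value printed in each cell. *Cxcl2* and *Cxcl16* are above 0 in all 6 mice, and in Ctrl mouse 3546 the other 8 genes are below 0.

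Within animals and after scaling of the libraries, *Cxcl2* and *Cxcl16* were higher in IL in 6 of 6 mice. *Ccl2*, *Ccl7* and *Ccl12* were higher in 5 of 6, the exception being Ctrl mouse 3546, *Ccl5* and *Ccl9* in 4, *Ccl3* and *Ccl4* in 3 and *Ccl6* in 1. In CPM before scaling the counts were 4 for *Ccl12*, 2 for *Ccl3* and 0 for *Ccl6*, and those of the other 7 ligands did not change. *Ccl2* rose by 1.68 and 1.06 on the log2 scale in cKO mice 791 and 3592, and differed by 0.29, 0.97, -0.69 and 0.43 in Ctrl mice 3541, 3545, 3546 and 3551. For *Cxcl2* the differences were 2.44 and 1.90 in the cKO mice and 2.14, 2.22, 0.75 and 1.58 in the Ctrl mice.

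**Figure D4:**
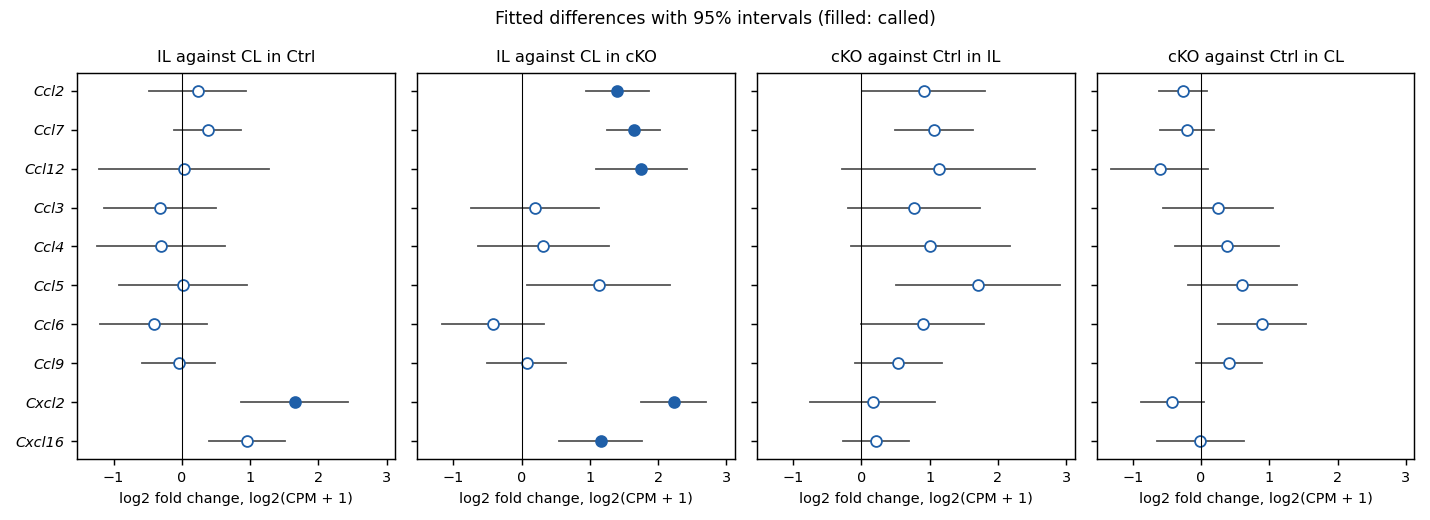
Log2 fold change (x axis) of the 10 ligand genes (y axis) in the 4 comparisons with 95% intervals, with filled points for genes that were called. Called genes appear in the comparisons of IL with CL, 1 in Ctrl and 5 in cKO, and in neither comparison of the genotypes.

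Whether the ligands depended on genotype was asked in each hemisphere. In IL, where 0.658% of all genes were called in either direction and 0.356% higher, none of the 10 ligands was called by limma, and 3 (*Ccl7*, *Ccl5* and *Ccl2*) had an unadjusted p under 0.05. All 10 log2 fold changes were above 0, with a median of 0.90 against 0.01 over all genes, and the adjusted p ran from 0.144 to 0.963. Without the Ctrl IL library of mouse 3546 the median was 0.51 with 9 above 0, against -0.02 over all genes. This comparison shares the Ctrl IL libraries, that of mouse 3546 included, with the comparison of hemispheres in Ctrl mice, and all genes with transcripts of up to 750 nt had a median of 0.30. For *Ccl2*, *Ccl5*, *Ccl7* and *Ccl12* the 3 cKO libraries lay above the 4 Ctrl libraries, as they did for 4.85% of all genes.

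*Ccl7* was at 67.8, 88.6, 53.8 and 86.4 CPM in the IL libraries of Ctrl mice 3541, 3545, 3546 and 3551, all below the 127.4 to 165.9 CPM of the cKO IL libraries. The log2 fold change of cKO against Ctrl was 1.06 (limma, SE 0.25, adjusted p = 0.144). Without the Ctrl IL library of mouse 3546 it was 0.86 with an adjusted p of 0.0272, and with all 14 libraries fitted together 1.06 with an adjusted p of 0.0372, and in both the gene was called. The call was lost when the mouse entered the latter fit as a random block (1.03, adjusted p = 0.0932). After adjustment for transcript length it was 0.87 (adjusted p = 0.166). *Ccl2* had a log2 fold change of 0.91 (SE 0.40, adjusted p = 0.553), which was 0.54 without that library, and *Ccl12* one of 1.13 (SE 0.62, adjusted p = 0.687), which was 0.49 without it.

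*Ccl5* was at 4.41, 3.64, 0.736 and 3.71 CPM in the IL libraries of Ctrl mice 3541, 3545, 3546 and 3551, below all cKO IL values. Its log2 fold change of 1.71 (limma, SE 0.53, adjusted p = 0.295) was the largest of the 10 between genotypes in IL, with a 95% interval of 0.51 to 2.91, and was 1.30 without the library of mouse 3546. *Ccl4*, *Ccl6* and *Ccl3* were at 1.01 (SE 0.51), 0.90 (SE 0.40) and 0.77 (SE 0.42) and overlapped between the genotypes. Without that library they were at 0.52, 0.54 and 0.39, and *Ccl9* went from 0.54 to 0.35. *Cxcl2* and *Cxcl16*, the ligands that were higher in IL in every mouse, were at 0.17 (95% interval -0.75 to 1.08) and 0.21 (-0.27 to 0.69) between genotypes in IL. For *Cxcl2* the sign turned without the Ctrl IL library of mouse 3546 (-0.24, adjusted p = 0.513).

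In CL, where 0.875% of all genes were called, limma called none of the 10 ligands, and *Ccl6* alone had an unadjusted p under 0.05. All genes with transcripts of up to 750 nt had a median of -0.18 and those over 4000 nt of 0.11 in this comparison. *Ccl6* was at 247, 305, 217 and 236 CPM in the CL libraries of Ctrl mice 3541, 3545, 3546 and 3551 and at 595, 615 and 280 CPM in those of cKO mice 788, 791 and 3592. The cKO libraries of mice 788 and 791 were far above the Ctrl libraries and that of mouse 3592 lay among them. The log2 fold change was 0.90 (SE 0.29, adjusted p = 0.287), and without the CL library of mouse 3592 it was 1.29 (adjusted p = 0.0329) and the gene was called. *Ccl2*, *Ccl7*, *Ccl12* and *Cxcl2* were at -0.27, -0.21, -0.60 and -0.42, and *Ccl3*, *Ccl4*, *Ccl5* and *Ccl9* at 0.25, 0.38, 0.61 and 0.41, with adjusted p values of at least 0.553. *Cxcl16* was at -0.01 (95% interval -0.65 to 0.63).

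The difference of hemispheres was then compared between genotypes as an interaction. No gene of the 18476 tested was called by limma, so that 0% were called, and 481 had an unadjusted p under 0.05. Over all genes, 3 were called when the mouse entered as a random block, and 0 of them were among the ligands. Among the ligands, *Ccl7* (1.27, 95% interval 0.60 to 1.95), *Ccl2* (1.18, 0.21 to 2.14) and *Ccl12* (1.73, 0.09 to 3.37) had an unadjusted p under 0.05, all with an adjusted p of 0.9999. Without both libraries of mouse 3546 they were at 0.94, 0.84 and 1.28, and the median of the 10 went from 0.61 to 0.27. After adjustment for transcript length *Ccl7*, *Ccl2* and *Ccl12* were at 0.92, 0.83 and 1.38. The interaction was 0.58 (-0.46 to 1.62) for *Cxcl2*, 0.22 (-0.63 to 1.06) for *Cxcl16* and 0.00 (-1.16 to 1.15) for *Ccl6*. The 5 calls in cKO and the 1 in Ctrl are thus not shown to differ between genotypes.

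Markers of CD11b+ cell types also differed between hemispheres, and their part in these results was not tested. The counts of marker genes called between hemispheres stand beside 6.56% of all genes called in Ctrl and 22.4% in cKO. The 10 microglial markers, which include *P2ry12* and *Tmem119*, summed to 46949 to 61784 CPM in Ctrl CL and 20098 to 28230 in Ctrl IL. In cKO mice they summed to 46026 to 55837 CPM in CL and 23718 to 28525 in IL, and 6 were called lower in each genotype, *P2ry12* and *Tmem119* in both. The 10 markers of infiltrating monocytes summed to 148 to 975 CPM in CL and 623 to 904 in IL of Ctrl and to 134 to 371 in CL and 588 to 802 in IL of cKO, with 4 called higher in each genotype, *Vcan*, *Ms4a4c* and *Fn1* in both. The 11 neutrophil markers summed to 1422 to 8629 CPM in Ctrl CL and 909 to 1508 in Ctrl IL, with none called, and to 1349 to 2452 in cKO CL and 918 to 1161 in cKO IL, with 6 called lower. The border macrophage list summed to 257 to 1483 CPM over the 14 libraries, highest in the Ctrl IL library of mouse 3546, with 1 of 8 called (*Cbr2*, lower, Ctrl). No marker of these lists was at 0 in all libraries of a group.

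The lists of other cells were low. Endothelial genes summed to 91.4 to 277 CPM, astrocyte genes to 123 to 226, oligodendrocyte genes to 176 to 312, B cell genes to 17.6 to 47.3 and neuronal genes to 2.76 to 20.4 CPM over the 14 libraries. Between hemispheres, where 6.56% of all genes were called in Ctrl and 22.4% in cKO, 0 of 8 endothelial genes were called in Ctrl and 1 in cKO, 2 of 6 astrocyte genes in each, 0 and 2 oligodendrocyte genes, 3 and 0 T and NK cell genes, and no B cell or neuronal gene in either. The 15 genes known to respond to tissue dissociation summed to 32735 to 52235 CPM in CL and 24042 to 30194 CPM in IL, with 2 called in Ctrl (1 higher, 1 lower) and 7 in cKO (1 higher, 6 lower). Of 11 genes that respond to NF-kappaB, a transcription factor that drives many chemokine genes, none was called in Ctrl and 3 were in cKO (*Nfkb2* and *Il1b* higher, *Nfkb1* lower), a share near that of all genes. Between genotypes, 1 gene of these lists was called in IL (*Olfml3*, a microglial marker, lower) and 1 in CL (*Mobp*, an oligodendrocyte gene, lower). Over all genes 0.658% were called in IL and 0.875% in CL.

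**Figure D5:**
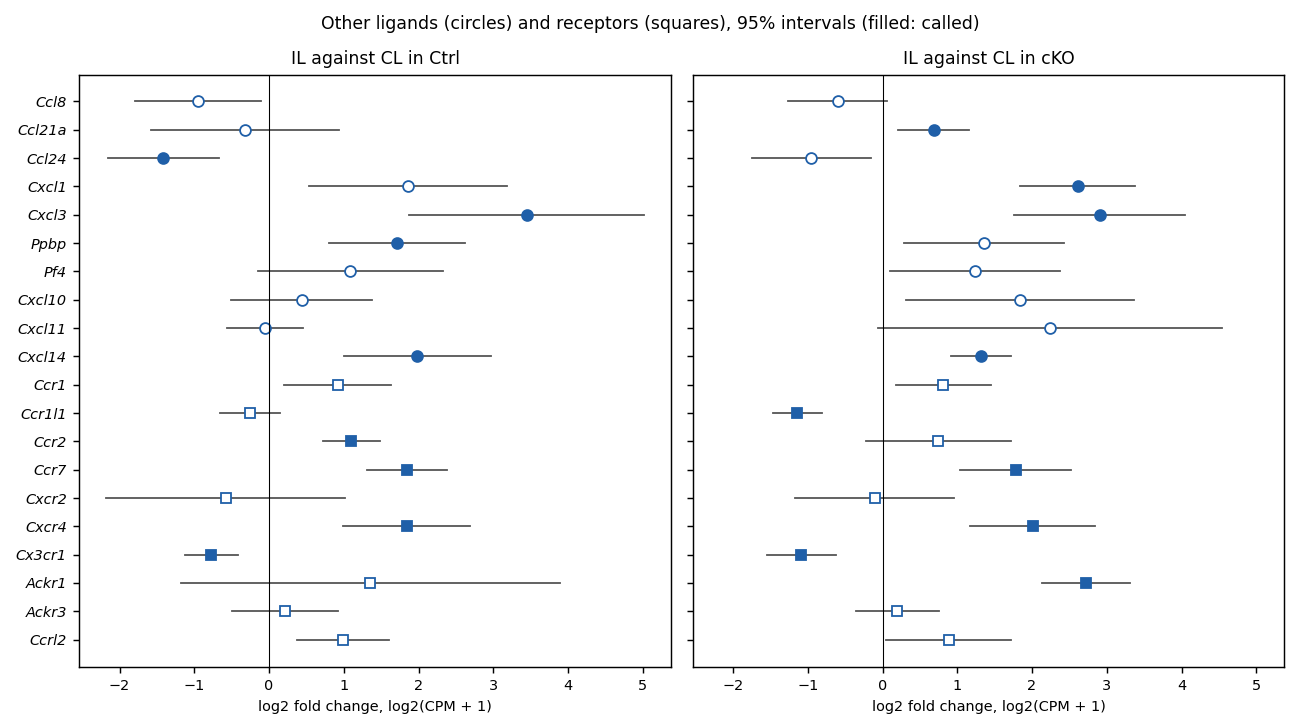
Log2 fold change of IL against CL (x axis) with 95% intervals in Ctrl and cKO for the other chemokine ligands (circles) and the receptors (squares) that were called in at least 1 comparison or reached a mean of 10 CPM in a group (y axis; 1 receptor is not shown), filled where called. *Cxcl3*, *Cxcl14*, *Ccr7* and *Cxcr4* are filled above 0 and *Cx3cr1* below 0 in both genotypes.

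Among 26 other chemokine ligands in the table, 18 were tested between the hemispheres of Ctrl mice and 3 were called higher (*Cxcl3*, *Cxcl14* and *Ppbp*) and 1 lower (*Ccl24*). In cKO mice 19 were tested and 4 called higher (*Cxcl1*, *Cxcl3*, *Cxcl14* and *Ccl21a*). Over all genes 6.56% were called in Ctrl and 22.4% in cKO, and with the mouse as a block 20.5% and 13.5%. The median log2 fold changes of these ligands were 0.17 in Ctrl and 0.68 in cKO. *Cxcl3*, a CXCR2 ligand like *Cxcl2*, was at 0.125 to 0.819 CPM in Ctrl CL and at 16.1, 64.6, 3.20 and 15.3 CPM in the IL libraries of mice 3541, 3545, 3546 and 3551, with a log2 fold change of 3.44 (limma, SE 0.71, adjusted p = 0.0197). In cKO it was 2.91 (SE 0.50, adjusted p = 0.00656). *Cxcl1*, the third CXCR2 ligand of this group, had a log2 fold change of 2.61 (SE 0.34, adjusted p = 0.00277) in cKO and of 1.86 (SE 0.59, adjusted p = 0.0992) in Ctrl, where it was called with the mouse as a block (adjusted p = 0.00193) and without the IL library of mouse 3546 (2.46, adjusted p = 0.00353). *Ccl21a* was not called in cKO with the mouse as a block (adjusted p = 0.224) or after adjustment for transcript length (adjusted p = 0.121).

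*Cxcl14* was at a mean of 2.48 CPM in Ctrl CL and 13.4 CPM in Ctrl IL (limma, log2 fold change 1.98, SE 0.44, adjusted p = 0.0274) and at 4.62 and 12.2 CPM in cKO (1.32, SE 0.17, adjusted p = 0.00299). *Ppbp*, a platelet chemokine, was called at 1.71 in Ctrl from means of 0.387 and 3.902 CPM, and *Pf4*, the platelet factor that macrophages also make, was not called, at 1.08 in Ctrl (adjusted p = 0.307) and 1.24 in cKO (adjusted p = 0.109). *Pf4* was called higher in Ctrl without the IL library of mouse 3546 (1.74, adjusted p = 0.00166), without both libraries of that mouse (1.79, adjusted p = 0.00368) and after adjustment for transcript length (1.13, adjusted p = 0.0216), and in cKO with the mouse as a block (1.53, adjusted p = 0.00861). *Ccl24*, an eosinophil attractant, was at -1.42 in Ctrl (adjusted p = 0.0344) and was not called after adjustment for transcript length (adjusted p = 0.0711), where it was at -1.36 with a larger SE (0.44 against 0.33). *Ccl8*, a further monocyte attractant, was at -0.95 in Ctrl and -0.60 in cKO, and *Cxcl10*, an interferon-induced ligand of CXCR3, at 0.44 and 1.84 (adjusted p = 0.643 and 0.0818), none of them called. With the mouse as a block, *Ccl8* was called lower in Ctrl (adjusted p = 0.00911) and *Cxcl10* higher in cKO (1.96, adjusted p = 0.00181). In cKO this block, here and for *Pf4*, rested on the 2 mice that gave both hemispheres. With it 20.5% of all genes were called in Ctrl and 13.5% in cKO.

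*Cxcl11*, another interferon-induced ligand of CXCR3, was the 1 chemokine ligand called between genotypes. In IL it was at 0.768, 0.732, 0.164 and 0.556 CPM in Ctrl mice 3541, 3545, 3546 and 3551 and at 23.3, 52.6 and 6.60 CPM in cKO mice 784, 791 and 3592, with a log2 fold change of 3.80 (limma, SE 0.59, adjusted p = 0.0329), and it was also called without the Ctrl IL library of mouse 3546 (3.64, adjusted p = 0.0133). In CL it was at 0.282 to 1.27 CPM in Ctrl and at 3.74, 18.0 and 0.194 CPM in cKO mice 788, 791 and 3592, which overlap, and was not called (1.53, SE 0.69, adjusted p = 0.508). Between the hemispheres of cKO mice it was at 2.24 (adjusted p = 0.146) and was called with the mouse as a block (2.17, adjusted p = 0.00344). No other ligand of the 18 tested in IL and of the 16 in CL was called between genotypes, where 0.658% and 0.875% of all genes were.

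Of 24 chemokine receptors, 20 were tested between hemispheres in each genotype, and 4 were called in Ctrl and 5 in cKO, where 6.56% and 22.4% of all genes were. *Ccr7* and *Cxcr4*, which guide dendritic cells and many leukocytes, were called higher in IL in both genotypes, at 1.85 (limma, SE 0.24, adjusted p = 0.00222) and 1.84 (SE 0.38, adjusted p = 0.0202) in Ctrl and at 1.78 (SE 0.32, adjusted p = 0.00787) and 2.01 (SE 0.37, adjusted p = 0.00812) in cKO. *Cx3cr1*, the fractalkine receptor of microglia, was called lower in both, at -0.77 and -1.08, from means of 2139 to 1179 CPM in Ctrl and 2345 to 1037 CPM in cKO. Its call in Ctrl was lost without both libraries of mouse 3546 (-0.70, adjusted p = 0.0639). *Ccr2*, the receptor of *Ccl2*, *Ccl7* and *Ccl12*, was called higher in Ctrl (1.101, SE 0.17, adjusted p = 0.0052). In cKO it was at 27.4, 21.8 and 72.8 CPM in the CL libraries of mice 788, 791 and 3592 and at 43.2, 44.2 and 93.8 CPM in the IL libraries of mice 784, 791 and 3592, and it was called with the mouse as a block (adjusted p = 0.037) but not without it. *Ackr1* (2.72) was called higher and *Ccr1l1* (-1.14), which was at means of 1.84 CPM in CL and 0.255 CPM in IL, lower in cKO.

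The other receptors named here were not called between hemispheres, with the exceptions given beside them. *Ccr1* was at 53.5 and 95.1 CPM in Ctrl and 48.2 and 79.0 CPM in cKO. With the mouse as a block it was called higher in IL in Ctrl (0.92, adjusted p = 0.0030) and in cKO (1.11, adjusted p = 0.021), and in Ctrl also after adjustment for transcript length (0.96, adjusted p = 0.043). With that block 20.5% of all genes were called in Ctrl and 13.5% in cKO, where it rested on the 2 mice that gave both hemispheres. *Cxcr2*, the receptor of *Cxcl1*, *Cxcl2* and *Cxcl3*, was at 9.77 to 59.7 CPM in CL and 6.30 to 37.8 CPM in IL of Ctrl and at 4.43 to 13.6 CPM in CL and 4.71 to 14.2 CPM in IL of cKO, which overlap. *Ackr3* reached 10.6 and 11.8 CPM in CL and IL of Ctrl. *Ccrl2*, which binds chemerin, was at means of 371 and 708 CPM in CL and IL of Ctrl and 871 and 1484 CPM in cKO. With the mouse as a block it was called higher in IL in both genotypes (adjusted p = 0.00476 in Ctrl and 0.0215 in cKO), and in Ctrl also without the IL library of mouse 3546 (1.19, adjusted p = 0.0166). In both hemispheres its cKO libraries lay above all Ctrl libraries, as did 3.98% of all genes in CL and 4.85% in IL. The log2 fold changes of *Ccrl2* were 1.16 in CL and 1.06 in IL (limma, adjusted p = 0.117 and 0.335). No receptor was called between genotypes, where 0.658% of all genes were called in IL and 0.875% in CL. Without the Ctrl IL library of mouse 3546, *Ackr1* was called lower in cKO in IL (-1.52, adjusted p = 0.0126).

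For each ligand the genes most like it over the 14 libraries were sought among 10614 others with a mean of at least 5 CPM, as a description. The libraries share mice and the loss of short transcripts in mouse 3546. Differences between the groups also enter these values: *Cxcl2* and *Cxcl16* had r = 0.76 over the 14 libraries and 0.055 in deviations from the group means. *Cxcl2* was most like *Sod2* (Pearson's r = 0.96), the mitochondrial superoxide dismutase, *Cxcl1* (0.96) and *Cela1* (0.95). *Cxcl16* was most like the interferon-induced genes *Ifit3* (0.98) and *Rsad2* (0.97), and *Prep* (0.97). *Ccl2* was most like *Isg15* (0.91), *Shmt2* (0.89) and *Borcs7* (0.88), and *Ccl7* most like *Sirt6* (0.90), *Herc6* (0.90) and *Isg15* (0.87). *Ccl12* was most like *Fam162a*, *Gm2614* and *Gm9797* (0.92 each), and *Ccl5* like *Tor3a* (0.89), *Cxcl11* (0.89) and *Il12b* (0.88).

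*Ccl4* was most like *Bcl2a1a* (0.92), *Cox6a2* (0.91) and *mt-Nd2* (0.89), and *Ccl3* like *Gm37305* (0.85), *Rps13* (0.84) and *Bcl2a1a* (0.83). *Ccl6* was most like *Ramp1* (0.94), *Hmgn3* (0.93) and *Trmt10a* (0.88), and *Ccl9* like *Bcl2a1a* (0.88), *Gm10704* (0.88) and *Gm7324* (0.86). Among the ligands themselves, deviations from the group means gave r = 0.97 for *Ccl3* and *Ccl4* with all 14 libraries and 0.97 with the 12 left without mouse 3546. For *Ccl6* and *Ccl9* the 2 values were 0.92 and 0.89. For *Ccl2* and *Cxcl2* they were 0.70 and -0.20, so that this likeness rested on mouse 3546.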

How the data were processed

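CD11b+ cells of 14 libraries (Smart Seq v4, paired-end NovaSeq) were aligned by the authors to mm10 with STAR and quantified in Partek Flow 8.0, per the submitters' processing notes. The deposited table, named raw counts, sums to 1000000 in each library, so it was read as CPM. Whole multiples of a step per library made up 78.5% to 83.5% of its values under 100 reads (tolerance 0.03), which gave the reads per library but were too few for a count test. The p-values, ratios and fold changes deposited for the authors' own comparisons were not used, and 0 columns of other series were present. How reads shared by genes or strands were counted is not given in the sources used here.

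CPM were scaled by trimmed means of M-values without weights (trims of 30% and 5%) over the libraries of each comparison, filtered (the CPM of 10 reads at median depth in as many libraries as the smaller group held, 15 reads in total) and compared as log2(CPM + 1) with limma 3.58.1 (trended variance, R 4.3.3). The fold changes understate the change of low genes. The design had assumed CPM and was kept, and the fits were checked on simulated data. Hemispheres of 1 animal carry its number in the labels: deviations from the group means correlated at 0.21 to 0.63 in the 6 pairs of 1 mouse and at -0.58 to 0.53 in the 19 other pairs. Subtracting the group means ties these values together, since a higher value in 1 pair lowers others, so this contrast is partly built in. The members, gene lists and tests were chosen with earlier results of these data known. The genes named were the 10 ligands, other ligands and receptors called in at least 1 comparison or reaching a mean of 10 CPM in a group, and the 3 genes most correlated with each ligand. The targeted gene and 1 receptor are not reported here. Transcript lengths are medians over protein-coding GENCODE transcripts on GRCm38, transcripts were compared with BLAST+ 2.17.0, and promoters came from RefSeq on GRCm38.p6. Alternatives were the pseudocount (0.5, 0.1), scaling, filter, thresholds, each library left out, the mouse as a block, fits of all 14 libraries and, added after the data were seen, adjustment for transcript length and leaving out mouse 3546.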

Additional observations from a re-analysis of the deposited data

How the results depend on the processing

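The number of ligands called between the hemispheres of Ctrl mice was 1. It was 2 with the deposited CPM, upper-quartile or median-ratio scaling, at least 10 reads in every library, the mouse as a replicate block, both fits of all 14 libraries, adjustment for transcript length and without both libraries of mouse 3546, and 0 with no filter beyond 1 read in total, where *Cxcl2* had an adjusted p of 0.053. Leaving out 1 library gave 0 to 2 in Ctrl, 4 to 6 in cKO, 0 to 1 between genotypes in IL and 0 to 1 in CL. In IL the fit of all 14 libraries called 1. The replicate block, which in cKO used the 2 mice with both hemispheres, changed the calls of *Cxcl16* in Ctrl and *Ccl5* in cKO and no other call of the 10 ligands.

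Signs turned for values near 0. In Ctrl, *Ccl5* was at -0.00997 and -0.0599 with pseudocounts of 0.5 and 0.1 and -0.0553 with the deposited CPM, *Ccl12* at -0.0446 with the deposited CPM, *Ccl9* at 0.0042 with upper-quartile scaling, and without both libraries of mouse 3546 *Ccl3*, *Ccl4* and *Ccl9* were at 0.00806, 0.077 and 0.0446. After adjustment for transcript length *Ccl9* was at 0.023 in Ctrl and *Ccl3* at -0.12 in cKO, where *Ccl9* was at -0.00997 with the deposited CPM. Between genotypes in CL, *Cxcl16* was at 0.0694 and 0.0284 with upper-quartile and median-ratio scaling, 0.0028 with the mouse as a random replicate block and 0.0337 after length adjustment. The interaction of *Ccl6* was 0.0777 with the random block. When 1 library at a time was left out, log2 fold changes in Ctrl ran from -0.51 to 0.0636 for *Ccl3*, -0.56 to 0.18 for *Ccl4*, -0.22 to 0.43 for *Ccl5*, -0.27 to 0.14 for *Ccl9* and -0.25 to 0.67 for *Ccl12*. In cKO they ran from -0.27 to 0.51 for *Ccl3*, -0.15 to 0.65 for *Ccl4* and -0.16 to 0.29 for *Ccl9*. Between genotypes they ran from -0.24 to 0.39 for *Cxcl2* in IL and -0.20 to 0.24 for *Cxcl16* in CL, and in the interaction from -0.38 to 0.26 for *Ccl6*, -0.11 to 0.33 for *Ccl9* and -0.0302 to 0.46 for *Cxcl16*. The cause was not tested.

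Over all genes, 1074 were called between hemispheres in Ctrl and 3746 in cKO. These became 3357 and 2261 with the replicate block, 2037 and 1391 in the fit of all 14 libraries, 4352 and 3093 with the random block, 1874 and 3212 after length adjustment, 590 and 2787 with no filter, and 554 and 822 at a fold change of 2. With the deposited CPM, the split of higher and lower calls moved from 590 and 484 to 625 and 814 in Ctrl and from 2150 and 1596 to 1647 and 2146 in cKO. Between genotypes, 111 calls in IL became 69 with no filter and 190 with the random block, and 145 in CL became 86 with at least 10 reads in every library, 265 in the fit of all 14 libraries and 290 with the random block. Without 1 library the 4 counts ran from 487 to 1413, 1881 to 3537, 46 to 284 and 70 to 165, and the 0 calls of the interaction became 0 to 1. The number of libraries, 3 or 4 a group, limits the precision of each value.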
